A study of Drosophila melanogaster with 19 samples.

Results

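Whole Drosophila embryos labelled as over-expressing tramtrack (ttk) in the trachea and the midline were compared with their control embryos. All 6 arrays whose titles name these 2 groups were taken, 3 of each, out of 19 arrays in the series. The titles and the strain entries give the control as btl-GAL4 btl-enh-RFPmoe and the other group as btl-GAL4 UAS-ttk btl-enh-RFPmoe. By these entries both groups carry the GAL4 driver and the red membrane marker of the breathless (btl) enhancer, and only the second carries UAS-ttk. The study's methods on RNA extraction name the same genotypes as the titles, with UAS-ttk69 as the transgene. The growth notes and the study's drawing of the stocks give something else. There the control is the UAS-ttk stock with the red marker and without GAL4, and the labelled embryos are its progeny with a btl-GAL4 UAS-tau-GFP line. On that reading both groups carry UAS-ttk, and the driver, the GFP transgene, the mothers and part of the genetic background differ between the groups as well, so that these cannot be told apart here from an effect of Ttk. Temperature is stated as 29 °C in the labels for both groups, and the study's methods give the temperature that the labels keep for the mutant experiment, 25 °C. RNA came from large pools of staged embryos, so that an array averages over many animals and several stages. The btl enhancer is active in the trachea and the midline but, per the study, also in other tissues such as the amnioserosa, and all of these are a small part of the RNA of a whole embryo. In bulk RNA of this kind, fewer cells of a type and less RNA per cell cannot be told apart.

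Ttk is a zinc-finger transcription factor with a BTB domain that is best known as a repressor. In the nervous system and the eye it holds back neuronal fates, and in the trachea it takes part in the choice of tip and fusion cells and in the shaping of the tubes. In the GAL4-UAS system the yeast activator GAL4 is made under one enhancer and switches on any gene behind a UAS sequence. Chitin, a polymer of N-acetylglucosamine, fills the lumen of the growing tracheal tubes for a time, where it sets their diameter and length, and it is the main fibre of the cuticle and of the lining of the gut.

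Expression values are the deposited ones, on the log2 scale, and 12679 genes known by FlyBase number were measured. A difference is the labelled over-expression minus the control, tested two-sided with limma on the 6 arrays alone. A gene is called a candidate where the difference is 1 or more on the log2 scale, a 2-fold change, with an unadjusted p of 0.05 or below, which was the study's own rule. The words rose and fell are kept for genes with a Benjamini-Hochberg adjusted p of 0.05 or below over all genes. Symbols could be paired with 112 of the numbers. The other genes are given by number, with what the study's lists of Gene Ontology terms say of them.

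The transcript of ttk itself (FBgn0003870) was not more abundant on the arrays labelled over-expression. Its log2 value was 12.39, 12.39 and 12.38 in the control embryos and 12.06, 11.57 and 12.19 in the labelled embryos. All 3 labelled arrays lie below all 3 control arrays, and replicate 2 lies lowest. With 3 arrays per group, a difference of -0.45 with a standard error of 0.17 did not pass the test (adjusted p = 0.28 from limma). Without over-expression replicate 2 it was -0.26.  In sorted cells of the same experiment ttk measured 11.89 and 11.99 without the label and 11.19 and 11.32 with it, again lower under the label. The level of ttk RNA therefore goes against the label in both materials, and every direction below is that of the label and not of a measured gain of ttk RNA. Which part of the transcript the probes cover is not given in the sources used here, and a UAS construct carries its own untranslated ends.

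The btl gene (FBgn0005592), the FGF receptor of the trachea whose enhancer drives GAL4, measured 9.39, 9.45 and 9.67 in control embryos and 9.11, 7.47 and 9.07 in the labelled embryos. The groups do not overlap, but the difference of -0.95 (standard error 0.46) rests on replicate 2 and did not pass the test (adjusted p = 0.328 from limma). It was -0.41 without that array. trachealess (trh, FBgn0003749), the bHLH-PAS regulator that starts tracheal fate, differed by -0.30 (standard error 0.16), with overlapping groups. dysfusion (dys, FBgn0039411), a bHLH-PAS factor of the tracheal fusion cells, measured 6.89, 6.75 and 6.71 in control embryos and 7.70, 6.41 and 7.64 in the labelled embryos. For dys, replicates 1 and 3 are above the controls and replicate 2 is below them. With all 6 arrays dys differed by 0.47 (standard error 0.36, adjusted p = 0.461 from limma). Without replicate 2 it was 0.89, past the threshold (adjusted p = 0.00882 from limma). In sorted cells dys went the other way, with 7.17 and 7.04 without the label and 6.69 and 6.81 with it. The difference there was -0.36 (adjusted p = 0.444 from limma).

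single-minded (sim, FBgn0004666), the master regulator of the ventral midline, was a candidate. Its log2 value was 8.99, 8.94 and 9.26 in the control embryos and 8.52, 7.28 and 8.35 in the labelled embryos. Every labelled array is below every control array, with a difference of -1.01 (standard error 0.34) that did not pass the adjusted threshold (adjusted p = 0.25 from limma). Among markers of other tissues, twist (twi), the mesoderm regulator, differed by -0.64, Mef2, which drives muscle differentiation, by -0.40 and serpent (srp), the GATA factor of blood and fat body, by -0.62. Their groups do not overlap, and their adjusted p-values lay between 0.252 and 0.326 (limma). The blood and glial factor gcm2 differed by -0.89 and LanA, the laminin alpha chain that blood cells and fat body secrete, by -0.05. On replicate 2 each of these genes, trachea, midline, mesoderm and blood markers alike, had its lowest value of the 6 arrays. Over all genes with a negative difference, replicate 2 was the lowest of the labelled arrays in 81.1%, so this is not particular to the markers. No detection calls were among the values used, so presence of these tissues was read only from a signal on every array.

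**Figure D1:**
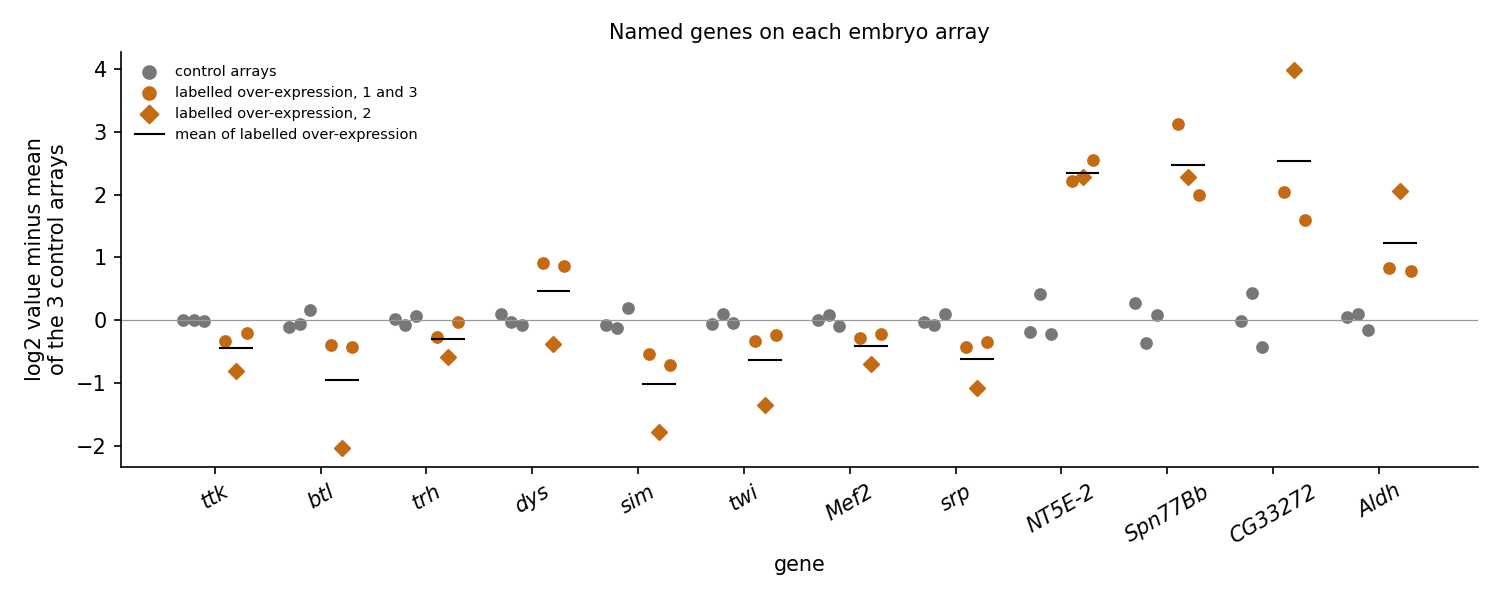
Log2 value of 12 named genes on each of the 6 embryo arrays, minus the mean of the 3 control arrays (vertical axis, log2 units). Grey points are control arrays, orange points the labelled over-expression arrays, with replicate 2 as a diamond and a bar at their mean. The arrays labelled over-expression lie below the controls for ttk, and replicate 2 lies apart from replicates 1 and 3 for btl, sim, twi and CG33272.

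Replicate 2 of the labelled embryos stands apart in the whole table. Pearson's r across all genes was 0.957 to 0.962 between it and the other labelled arrays and 0.933 to 0.947 between it and the controls, while every other pair of the 6 arrays had 0.988 or more. In all, 1898 genes lay more than 1 log2 unit from the mean of the other 2 labelled arrays, against 6 to 83 for a control array within its group. The first principal component, with 80% of the variance, had this array at one end and control replicate 3 at the other. Over the controls the SD of the typical gene (median over genes) was 0.08. Over the labelled embryos it was 0.24, and over labelled replicates 1 and 3 alone 0.07. The signal of the 3′ probe set of actin over its 5′ set, a common measure of RNA integrity and labelling, was 1.06 on replicate 2 and 0.65 to 0.82 on the other arrays, for GAPDH it was 1.61 against 1.79 to 1.9, and for eIF-4a 1.59 against 1.17 to 1.5 (log2). The part of these differences in the results was not tested. The main results are given with and without replicate 2.

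Under the study's rule 396 genes were candidates, 3.12% of those tested. Of these, 315 were higher in the labelled embryos (2.48%) and 81 lower (0.639%). Over all genes 39.4% had a positive difference and the median difference was -0.07. Without replicate 2 there were 289 candidates (2.28%), of which 246 were candidates in the full set too and in the same direction. Of the 315 higher candidates, 221 (70.2%) still differed by 1 or more without replicate 2, and of the 81 lower ones 31 (38.3%).

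Only 44 genes passed the adjusted threshold (0.347%). Of these, 25 rose (0.197%) and 19 fell (0.15%). In all 44 the groups did not overlap, which over all genes held for 15.4% in the higher and 23.6% in the lower direction. At an unadjusted p under 0.05 the count was 2208 (17.4%). Leaving out replicate 2 gave 1330 genes past the threshold (10.5%), 673 higher and 657 lower, which hold all 44. Leaving out any other array gave 8 to 14, with 8 without control replicate 3. The number of calls therefore depended on the arrays in the fit, while the direction of all 44 was the same without replicate 2.

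**Figure D2:**
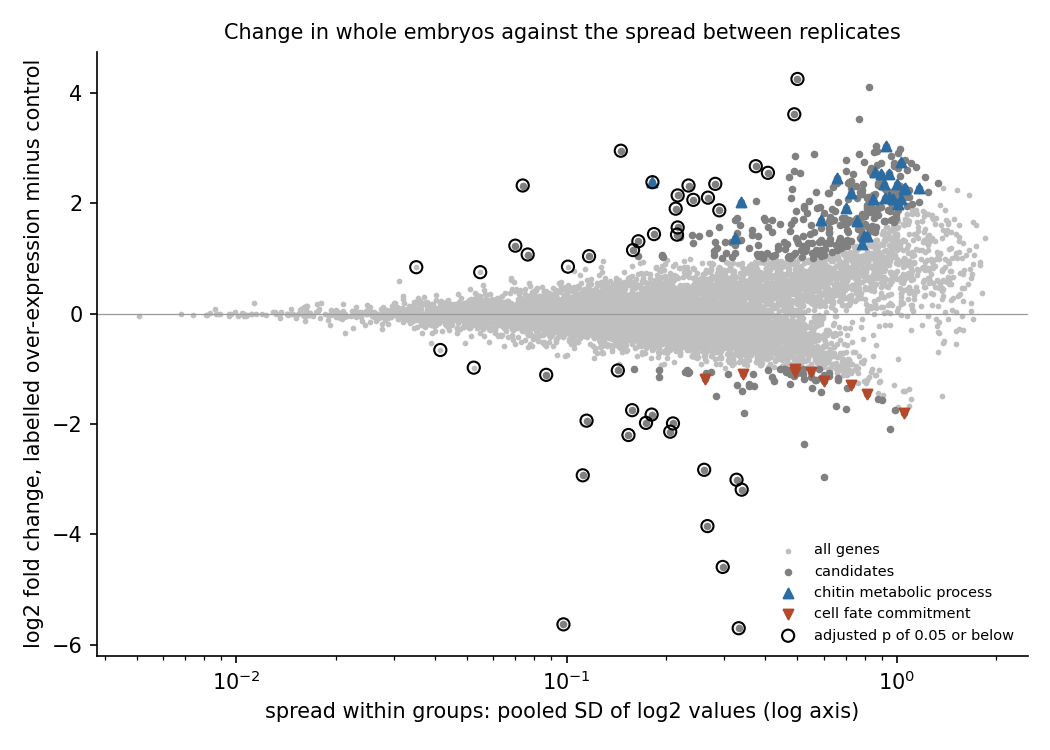
Log2 fold change of each gene in whole embryos (vertical axis, labelled over-expression minus control) against its pooled SD within the groups (horizontal log axis, log2 units). Pale points are all 12679 genes, darker points the 396 candidates, triangles the genes of 2 lists of the study and rings the 44 genes past the adjusted threshold. The rings lie at a smaller spread (median 0.18) than the other candidates (median 0.66).

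Candidates and adjusted calls thus hold a few genes that moved by about the same amount on all 3 labelled arrays and many that were graded across the arrays. In the first kind are the 44 adjusted calls, whose median pooled SD was 0.18 log2 units. In the second are the other 357 candidates, with a median of 0.66, against 0.19 over all genes. Of the 293 higher candidates outside the adjusted calls, 279 (95.2%) had their highest labelled value on replicate 2 and 213 (72.7%) had their lowest control value on control replicate 3. Over all genes with a positive difference these shares were 62.5% and 44.6%. Of the 64 lower candidates outside the adjusted calls, 58 (90.6%) had their lowest labelled value on replicate 2. Among all genes with a negative difference it was 81.1%. For the 25 genes that rose, by contrast, replicate 2 was the highest in 11 (44%), and for the 19 that fell it was the lowest in 7 (36.8%). These counts describe the arrays that chose the genes, and no test was made of them.

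Genes of chitin metabolism formed an annotated group among the higher candidates. The study's Gene Ontology list for chitin metabolic process was drawn from the genes that were higher on these same arrays. Neither the direction of its genes nor the shares of candidates and calls among them are therefore independent evidence. The list holds 27 genes, all measured. All 27 had a positive difference, from 1.26 to 3.03 with a median of 2.11, against -0.07 over all genes. Of the 27, 26 were candidates, beside 2.48% of all genes, and 1 rose by the adjusted threshold. The exception among the candidates is FBgn0040959, with 6.48, 6.63 and 5.09 in the controls and 7.39, 8.00 and 6.58 in the labelled embryos. Its groups overlap, and its difference of 1.26 (standard error 0.54) had a p of 0.06 before adjustment (limma). Aminoglycan and polysaccharide metabolism, further terms of the study, hold the same 27 genes and 1 more each.

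The largest difference in the list was that of FBgn0036563. Its log2 value was 5.99, 6.64 and 6.21 in the control embryos and 8.70, 10.77 and 8.47 in the labelled embryos, a difference of 3.03 (standard error 0.63, adjusted p = 0.145 from limma). The labelled arrays are all above the controls, and replicate 2 stands more than 2 log2 units above the other 2. FBgn0034582 was the gene of the list that rose. It measured 5.49, 5.63 and 5.27 in the controls and 7.65, 8.02 and 7.87 in the labelled embryos, so that all 3 labelled arrays moved alike. Its difference was 2.38 (standard error 0.14), with an adjusted p of 0.00557 from limma. FBgn0036950 lay next to the threshold, with 4.57, 4.30 and 4.31 in the controls and 6.39, 6.88 and 5.98 in the labelled embryos, a difference of 2.02 (standard error 0.24, adjusted p = 0.0532 from limma). These genes, and those of the next list, were singled out after their values were seen.

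The chitin genes moved together across the arrays. Relative to the mean of the controls, their median lay at 0.18, 0.31 and -0.50 on control replicates 1, 2 and 3, and at 1.71, 3.45 and 1.26 on labelled replicates 1, 2 and 3. Replicate 2 had the highest value of the 6 arrays for all 27 genes, and control replicate 3 the lowest for 23. The median SD of its genes was 0.50 in the controls and 1.08 in the labelled embryos, against 0.08 and 0.24 over all genes. Without replicate 2 all 27 differences stayed positive, from 0.75 to 2.31 with a median of 1.44, and 16 passed the adjusted threshold, beside 5.31% of all genes in that direction. The arrays kept in this fit also had a part in choosing the list, so this share is no independent evidence either. Without control replicate 3 the median was 1.92. The chitinase-like growth factor Idgf3 (FBgn0020414), which the study names, is not in this list and differed by 0.29 (standard error 0.13), with the groups just apart.

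**Figure D3:**
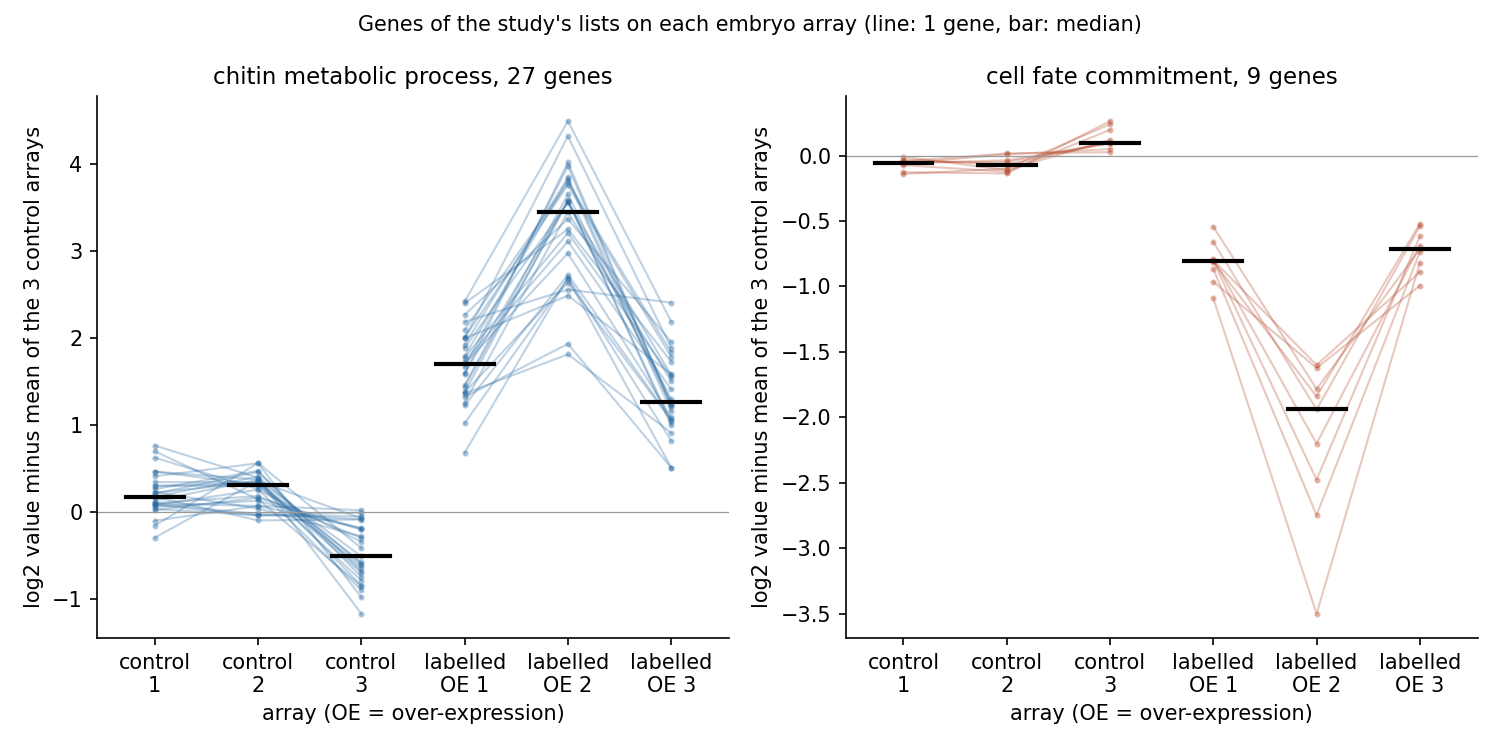
Log2 value of each gene on each of the 6 embryo arrays, minus the mean of the 3 control arrays (vertical axis, log2 units), for the 27 chitin metabolism genes (left) and the 9 cell fate commitment genes (right). A line is 1 gene and a bar the median. In both lists replicate 2 is the most extreme labelled array, and labelled replicates 1 and 3 also lie on the same side of the controls.

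Genes of proteolysis formed another group among the higher candidates. The study's list under proteolysis was held only in part, and 28 of the numbers shown in it were measured. All 28 were positive, from 1.04 to 2.86 with a median of 1.87, and 27 were candidates, beside 2.48% of all genes in that direction. None of them is in the chitin list. Relative to the control mean, their median was 0.39, 0.27 and -0.65 in the control embryos and 1.37, 2.50 and 1.52 in the labelled embryos. Control replicate 3 was the lowest of the 6 arrays for 24 of them and labelled replicate 2 the highest for 27, the same pattern as for chitin. FBgn0028945 was the gene of this list that rose, with 4.46, 4.80 and 4.40 in the controls and 5.82, 6.10 and 6.04 in the labelled embryos, a difference of 1.44 (standard error 0.14, adjusted p = 0.0293 from limma). Without replicate 2 all 28 stayed positive with a median of 1.43, and 13 passed the adjusted threshold, beside 5.31% of all genes in that direction. This list too was drawn by the study from the genes that were higher on these arrays. Its shares are thus no independent evidence, with or without replicate 2.

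Of the candidates with a symbol, all but sim were higher. NT5E-2 (FBgn0050104), a 5′-nucleotidase of the kind that splits phosphate from nucleoside monophosphates, rose. It measured 4.13, 4.73 and 4.09 in the control embryos and 6.53, 6.60 and 6.87 in the labelled embryos, so that it was low in every control and clearly above in each labelled array. The difference was 2.35 (standard error 0.20, adjusted p = 0.0159 from limma). Spn77Bb (FBgn0036969), of the serpin family of protease inhibitors, had 3.91, 3.28 and 3.72 in the controls and 6.76, 5.92 and 5.63 in the labelled embryos. Its difference of 2.47 (standard error 0.33) did not pass the adjusted threshold (adjusted p = 0.0699 from limma).

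CG33272 (FBgn0053272) measured 9.46, 9.90 and 9.05 in the controls and 11.52, 13.45 and 11.07 in the labelled embryos, a difference of 2.54 (standard error 0.65, adjusted p = 0.185 from limma). It had the graded pattern of the chitin genes, with replicate 2 highest and control replicate 3 lowest. Aldh (FBgn0012036), an aldehyde dehydrogenase, measured 10.62, 10.67 and 10.40 in the controls and 11.40, 12.62 and 11.35 in the labelled embryos, a difference of 1.23 (standard error 0.36, adjusted p = 0.216 from limma). Without replicate 2 the differences were 2.39 for NT5E-2, 2.56 for Spn77Bb, 1.82 for CG33272 and 0.81 for Aldh, and all 4 then passed the adjusted threshold (adjusted p = 0.0114, 0.0243, 0.0272 and 0.0184 from limma).

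The genes that rose and fell past the adjusted threshold carry few annotations. Of the 44, 3 have a symbol or stand in one of the study's lists, and these are NT5E-2, FBgn0034582 and FBgn0028945. The 2 largest rises were those of FBgn0035789 and FBgn0038509. FBgn0035789 measured 4.37, 4.13 and 3.87 in the control embryos and 8.69, 7.62 and 8.82 in the labelled embryos, a difference of 4.25 (standard error 0.35, adjusted p = 0.0133 from limma). All labelled arrays are more than 3 log2 units above every control array. FBgn0038509 measured 5.54, 6.20 and 5.98 in the controls and 9.64, 8.86 and 10.05 in the labelled embryos, a difference of 3.61 (standard error 0.34, adjusted p = 0.0227 from limma). For both, replicate 2 had the smallest of the 3 labelled values, the reverse of the chitin genes.

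The falls were the steeper of the calls. FBgn0052301 measured 8.96, 9.08 and 9.29 in the controls and 3.21, 3.11 and 3.91 in the labelled embryos, a difference of -5.70 (standard error 0.24, adjusted p = 0.00139 from limma). FBgn0039307 measured 9.46, 9.51 and 9.47 in the controls and 3.89, 3.96 and 3.70 in the labelled embryos, a difference of -5.63 (standard error 0.10, adjusted p = 4.45e-05 from limma). All 3 labelled arrays, replicate 2 included, lie more than 5 log2 units below every control array in both genes. On the labelled arrays only 1.51% to 8.83% of all genes had a lower value than these 2, against 47.5% to 53.2% on the controls. With no detection calls a signal above background was not shown there, so no fold is given for them, and the true falls may be larger than these differences. In the control embryos of the mutant experiment, FBgn0052301 measured only 2.42 and 2.50 and FBgn0039307 only 2.26 and 2.09. Their high level in the controls here was thus not shared by the other control embryos of the series. Those embryos come from another stock and another labelled temperature, and the cause of this difference was not tested. The 19 falls had a median of -2.14 and ranged to -0.66, and the 25 rises had a median of 1.90 and ranged from 0.75. Relative to the control mean, the median of the rises was 1.92, 1.84 and 1.88 on labelled replicates 1, 2 and 3, and that of the falls -2.02, -2.16 and -2.41. On these genes the 3 labelled arrays were thus alike, which is also what the adjusted threshold selects for.

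**Figure D4:**
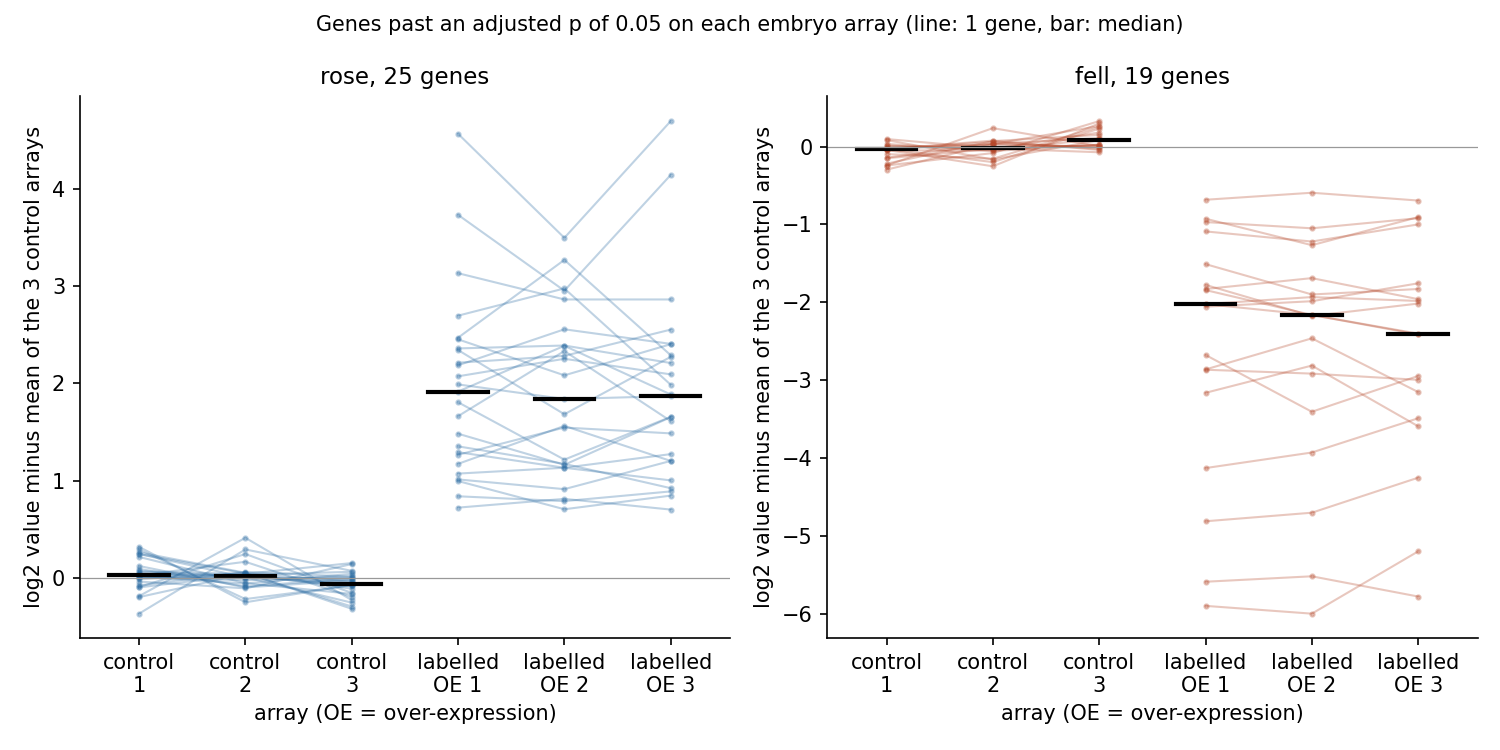
Log2 value of each gene past the adjusted threshold on each of the 6 embryo arrays, minus the mean of the 3 control arrays (vertical axis, log2 units), for the 25 genes that rose (left) and the 19 that fell (right). A line is 1 gene and a bar the median. The medians of the 3 labelled arrays lie within 1.84 to 1.92 for the rises and -2.41 to -2.02 for the falls.

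Genes of cell fate commitment formed an annotated group among the lower candidates. The study lists 9, drawn again from these arrays, and sim is 1 of them. Their direction and the share of candidates among them are thus no independent evidence. All 9 had a negative difference, from -1.80 to -1.01 with a median of -1.19, and all were candidates, beside 0.639% of all genes. No gene of the list passed the adjusted threshold. FBgn0000022 had the largest difference, with 9.10, 9.00 and 9.23 in the controls and 8.02, 5.61 and 8.29 in the labelled embryos, a difference of -1.80 (standard error 0.72, adjusted p = 0.284 from limma). FBgn0003118 was the closest to the threshold, with 10.86, 10.92 and 10.93 in the controls and 9.94, 9.28 and 9.91 in the labelled embryos, a difference of -1.19 (standard error 0.19, adjusted p = 0.101 from limma).

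Replicate 2 had the lowest value of the 6 arrays for all 9 cell fate genes, and control replicate 3 had the highest for all 9. Relative to the control mean the median was -0.06, -0.07 and 0.10 in the control embryos and -0.80, -1.94 and -0.71 in the labelled embryos. Labelled replicates 1 and 3 are thus also below the controls, by less than 1 log2 unit in the median. Without replicate 2 the differences ran from -0.98 to -0.60 with a median of -0.74. No gene of the list was then a candidate by the study's rule, while all 9 passed the adjusted threshold, beside 5.18% of all genes in that direction. The arrays kept in that fit also had a part in choosing the 9, so this share is no independent evidence.

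Other Gene Ontology lists of the study were drawn from other samples and so did not use these arrays. From genes higher in ttk mutant embryos it gives 29 complete lists, mostly of oogenesis, axis formation and germ cells, with 61 measured genes in all. Of these, 43 were positive and 18 negative, with a median of 0.14, and 1 was a candidate, higher. The medians of the lists lay between -0.03 and 0.36. From genes higher in cultured S2 cells after ttk knock-down it gives 55 complete lists, of muscle, nervous system, polarity and growth among others, with 131 genes. Of these, 27 were positive and 104 negative, with a median of -0.20 and 0 candidates, where over all genes 39.4% were positive and the median was -0.07. These medians are nearer to 0 than those of the chitin and cell fate lists, which were chosen on these arrays.

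Sorted cells of the same experiment, 2 control and 2 labelled arrays, give a second look at the same genes. Whether they came from the same collections of embryos is not stated. Fluorescent cells of the btl enhancer were collected there, so the tracheal and midline part is enriched. The strain entry of the control cells names the mutant strain, and they were grouped by title. The candidate rule gave 234 genes higher in the labelled cells (1.85%) and 87 lower (0.686%), and 0 genes passed the adjusted threshold (limma), so the changes are given as values. Of the 25 genes that rose in embryos, 22 were also higher in cells, 11 of them as candidates, with a median of 0.86. Of the 19 that fell, 18 were also lower in cells, 8 of them as candidates, with a median of -0.96. Among all genes with a positive difference in embryos, 65.1% were positive in cells and 3.88% were candidates in that direction. For genes with a negative difference these shares were 57.5% and 0.846%.

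Of the 12 largest rises in embryos, 11 were also positive in cells and 8 of these by 1 or more, from -0.20 to 3.55 with a median of 1.43. The 12 largest falls were all negative in cells, 5 of them by 1 or more, from -3.09 to -0.25 with a median of -0.96. In the control cells these 12 started at unlike levels, from 3.39 and 3.67 in 1 gene to 8.15 and 8.45 in another. Where the start is low a large fall has little room, so the smaller values of such genes do not show a weaker response in cells. Other genes of the 12 started higher, and their values were mixed. A gene at 6.29 and 5.58 in the control cells differed by -0.96, against -2.83 in embryos. The gene at 8.15 and 8.45 differed by -2.65, against -2.93. Whether the 12 as a set respond less in cells was not tested. FBgn0035789 differed there by 3.55 and FBgn0038509 by 3.47. FBgn0052301 differed by -3.09 and FBgn0039307 by -2.74, and NT5E-2 by 1.32. Leaving out 1 cell array at a time kept 21 to 23 of the 25 rises positive and 17 or 18 of the 19 falls negative.

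For the chitin genes the sorted cells gave no settled direction. Of the 27, 16 were positive and 11 negative, from -2.58 to 1.72 with a median of 0.19, and 0 were candidates. Arrays of 1 group lay far apart on these genes, by 2.46 in the median and up to 6.21 between the 2 control arrays and by 2.56 and up to 7.11 between the 2 labelled arrays, against medians of 0.14 and 0.25 over all genes. With 1 cell array left out, between 4 and 24 of the 27 were positive, the lowest without labelled replicate 1 and the highest without labelled replicate 2, and the median lay between -1.40 and 0.75. The 9 cell fate genes were all lower in cells as well, from -1.20 to -0.02 with a median of -0.79, and 1 was a candidate. In 6 of them both labelled arrays were below both control arrays, and 1 turned positive without control cell replicate 2. FBgn0000022, with the difference of -0.02, was already low in the control cells (3.75 and 4.38), so little can be read from it. sim measured 10.38 and 10.50 in control cells and 8.82 and 10.05 in labelled cells, a difference of -1.01.

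A contrast for a different change in the 2 materials was fitted to every gene over the 10 arrays of this experiment. It passed the adjusted threshold for 9 genes (0.071%), of which FBgn0034582 is the only one in the chitin list. The number of these calls depended on the arrays in the fit. It was 0 when any 1 control embryo array or control cell replicate 2 was left out, and 90 without over-expression embryo replicate 2. Leaving out 1 of the other cell arrays gave 11 to 58. For FBgn0034582 the change in cells was 2.10 lower on the log2 scale than in embryos, 0.28 against 2.38 (adjusted p = 0.031 from limma). For FBgn0039307 the difference was -2.74 in cells and -5.63 in embryos (adjusted p = 0.0232 from limma). This gene measured 6.35 and 6.02 in the control cells, well below the control embryos, and 3.68 and 3.21 in the labelled cells, near the lowest values of the array as in the labelled embryos. The lowest value of any gene on the labelled cell arrays was 2.15 and 2.21, so a fall as large as in embryos could not have been measured from that start, and the contrast does not show a weaker response in cells. For the other chitin genes and all cell fate genes a different change in cells and embryos was not shown.

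**Figure D5:**
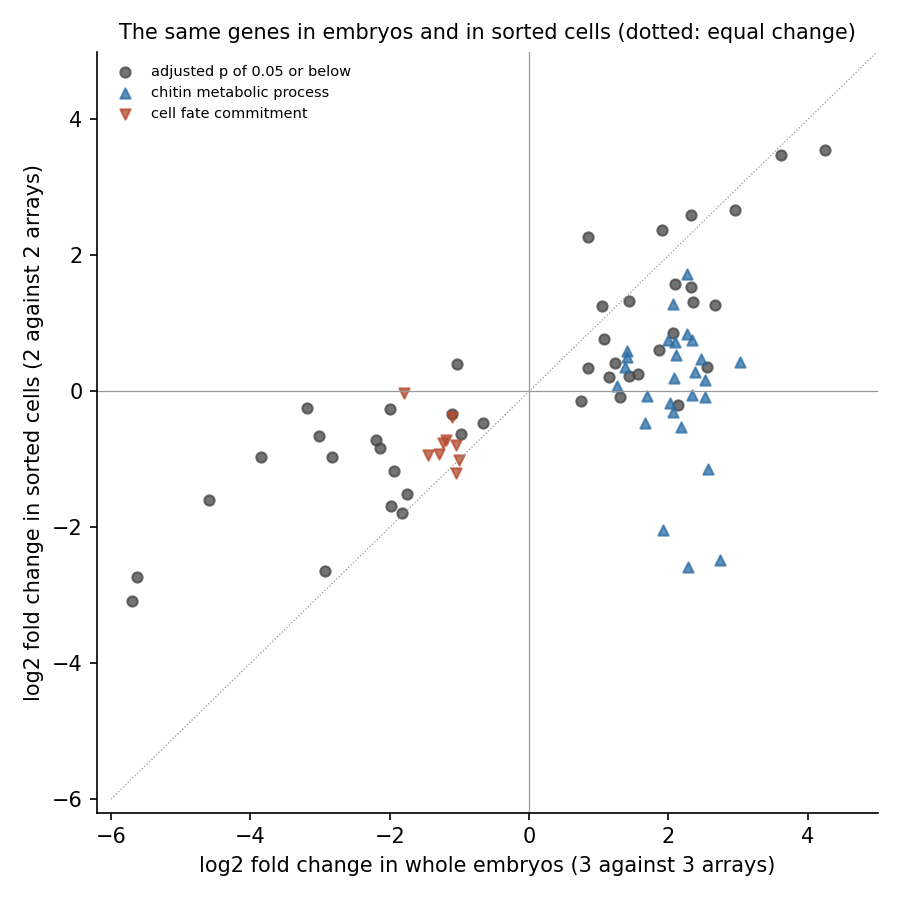
Log2 fold change of the same genes in whole embryos (horizontal axis, 3 against 3 arrays) and in sorted cells (vertical axis, 2 against 2 arrays), each labelled over-expression minus control. Circles are genes past the adjusted threshold in embryos, upward triangles the chitin genes and downward triangles the cell fate genes, and the dotted line marks an equal change. Most circles lie in the quadrants of the same direction, and the chitin genes spread from -2.58 to 1.72 in cells.

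Embryos labelled ttk mutant, 2 arrays against 2 controls from the other experiment and with no array in common, are set beside these values as a description only. The 2 control arrays there differ from each other, with r = 0.9 over all genes and 4173 genes (32.9%) more than 1 log2 unit apart, against r = 0.985 between the 2 mutant arrays. Control replicate 2 is the array further from both mutant arrays (r = 0.841 and 0.886, against 0.968 and 0.976 for control replicate 1). The 9 cell fate genes had positive differences, from 0.30 to 2.47 with a median of 1.11, but control replicate 2 was below control replicate 1 in all 9, by 2.44 in the median. Without control replicate 2, 6 were positive and 3 negative with a median of 0.15, and in 3 of the 9 both mutant arrays were above both controls. All genes had a median of 0.19 in that comparison, and 60.4% were positive. Of the 27 chitin genes 21 were lower and 6 higher, with a median of -0.35, and without control replicate 2 these were 15 and 12 with a median of -0.06. The 25 genes that rose had a median of -0.02, which lay between -0.27 and 0.34 with 1 array left out, and the 19 that fell a median of 0.37, between 0.14 and 0.40. CG33272, which was higher in labelled embryos, measured 7.87 and 9.80 in these controls and 3.59 and 3.11 in the mutant embryos, a difference of -5.49 (adjusted p = 0.339 from limma). In sorted cells it measured 6.13 and 5.82 without the label and 13.13 and 6.52 with it, a difference of 3.85 that rests on labelled replicate 1 and was 0.54 without that array. The other named higher candidates had no common direction in mutant embryos. NT5E-2 differed there by 1.03, Spn77Bb by 0.22 and Aldh by -0.96.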

How the data were processed

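RNA of whole embryos was amplified isothermally and hybridised by the authors to 1-colour Affymetrix Drosophila Genome arrays. The submitters' processing notes name RMA, and the study's methods name an ENSEMBL based chip definition that gives 1 value per FlyBase gene. The unit of the deposited values was read from their range as log2. Which arrays were normalized together for the deposited values, and the genome build, are not given in the sources used here. The study's text on quality control states, under the mutant data, that it refrained from an early normalization between groups. RMA draws arrays towards a common distribution, so that a change shared by most genes would be reduced. The labels give 25 ng of labelled RNA and the methods a smaller amount.

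All 19 columns belong to samples of the series. Tests covered 12679 genes and left out 182 control features. The 6 arrays, 3 per group by title, were fitted with limma 3.58.1 (R 4.3.3), with default moderation, two-sided tests and Benjamini-Hochberg adjustment. Sorted cells and mutant embryos were fitted apart, and cells were set against embryos as a contrast on 10 arrays. The script was tested on simulated data in which 200 genes were changed. Whether the replicates are separate cultures of flies is not fully stated, so p-values measure the spread between these samples, which is the limit on precision. Depth does not apply to arrays.

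The members, lists and tests were chosen with earlier results of these data known. Named are ttk and the genes of the constructs, genes the study names, the 12 largest rises and falls among adjusted calls with groups apart, and up to 4 candidates of each list of symbols, with at most 2 unnamed numbers each way; numbers from the study's Gene Ontology lists were added after their values were seen. A table of the study named 9 numbers and 105 were matched in the RefSeq gene list, of which 2 had more than 1 symbol, so that 112 had 1 symbol. Of 40 lists of symbols written for cell types and pathways, none had enough named members to be counted, and the study's own lists were used for membership only. Position on the chromosomes and promoter motifs were not analysed here. Alternatives were other scalings, filters, spread models, a replicate block, a stricter fold change and leaving out each array. Leaving out 2 arrays together, keeping the control features and leaving out arrays in the contrast, the sorted cells and the mutant experiment were added after the data were seen.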

Additional observations from a re-analysis of the deposited data

Results flagged for a closer look

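Of the 182 control features of the array, which stand outside the genes tested, 4 had groups that do not overlap and a difference of 0.5 or more in the labelled embryos. AFFX-Dm-U43284-1_s_at measured 5.60, 5.56 and 5.36 in the control embryos and 7.31, 6.03 and 7.01 in the labelled embryos, a difference of 1.27 (standard error 0.34, adjusted p = 0.193 from limma with the control features kept). AFFX-Dm-K01486-1_at measured 2.94, 2.75 and 2.81 in the controls and 3.84, 3.04 and 3.74 in the labelled embryos, a difference of 0.70 (standard error 0.23, adjusted p = 0.239 from limma). Both also lay higher on each labelled array of sorted cells, by 2.92 and 1.25 on average, and in embryos replicate 2 had the smallest of the 3 labelled values of both. The sources used here do not say which sequences these features match. AFFX-Dros-GAPDH_3_at and AFFX-Dros-GAPDH_5_at differed by 0.58 and 0.66, with the highest value of the 6 arrays on replicate 2, 12.78 and 11.16.

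The change in sorted cells differed from that in embryos by the tested contrast for FBgn0034582, by -2.10, and for FBgn0039307, by 2.89. With any 1 control embryo array left out neither passed, and for FBgn0039307 the labelled arrays of both materials lie near the lowest values of the array, so that a fall as large as in embryos could not show in cells.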

How the results depend on the processing

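The count of candidates, 396, was 67 without genes below the median signal, 252 without moderation, 227 at a log2 fold change of 1.5, and 251 to 687 when 1 array was left out, the lowest without control replicate 3 and the highest when over-expression replicate 3 was left out. The 44 adjusted calls became 25 and 4 without genes below the 25th percentile and the median of the signal, where fewer genes are tested, 107 with all 4 groups in one fit, 18 without moderation, 3875 with array weights, which gave replicate 2 a weight of 0.0459, and 1180 with over-expression 2 and control 3 both left out. Leaving out 1 array gave 8 to 1330 calls. Of these alternatives, those with over-expression replicate 2 left out or weighted down held all 44. Centring, quantile normalization, an intensity trend and robust moderation gave 40 to 54 calls, and 38 to 42 of the 44 were among them. The part of higher genes among the adjusted calls, 56.8%, was 38.9% without moderation, 75% above the median signal and 25% to 50.6% with 1 array left out.

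With the replicate number as a block, 7 adjusted calls were left, all among the 44, and 482 candidates. Deviations from the group mean of arrays with the same number correlated at -0.32, 0.353 and 0.412. Labelled replicate 1 correlated best with control replicate 3, at 0.455. With 3 arrays per group, labelled replicate 2 and control replicate 3 weigh heavily in these deviations. The values therefore cannot show whether the numbers pair the samples. ttk was lower under every alternative. Its difference passed the threshold with array weights, at -0.31 (adjusted p = 0.00956 from limma), and was -0.57 to -0.26 with 1 array left out. The 9 genes with a different change in cells and embryos became 4 after centring and 0 to 90 with 1 array left out. Where the count was 0, 888 to 957 genes had an unadjusted p under 0.05.

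With 1 array left out, the median of the chitin list in sorted cells, 0.19, lay between -1.40 and 0.75, with -0.32 without control replicate 2 and -1.40 without labelled replicate 1. That of the rises in mutant embryos, -0.02, lay between -0.27 and 0.34, positive without control replicate 2 (0.34) and without mutant replicate 1 (0.09).

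For single genes, Adp turned from -0.15 to 0.02 with array weights, and LanA from -0.05 to 0.00 with array weights and to between -0.10 and 0.00 with 1 array left out. Over 118 genes named or listed, 1776 alternative fits kept direction and side of the threshold in 1402, lost a call in 255 and gained 1 in 116. The median of the chitin list stayed between 1.44 and 2.51 and that of the cell fate list between -1.32 and -0.74. No signal over background was held. Of the 315 higher candidates, 113 (35.9%) had a mean of the controls below the 25th percentile of that mean, against 25% of all genes. Among the 25 genes that rose it was 12 (48%), and among the 19 that fell 3 (15.8%). Small changes are least certain there. The causes of these shifts were not tested.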
